A study of Mus musculus with 3 samples.

Results

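The proteasome genes of mouse Peyer's patch phagocytes were taken as every gene whose symbol begins with Psma, Psmb, Psmc, Psmd, Psme, Psmf or Psmg and a digit, and which had at least 20 UMIs (unique transcript molecules) over the 3 libraries. Of 27998 genes, 50 symbols matched and 49 met the minimum. Psmb11, the thymus subunit, had 1 UMI in all and was left out. The rule used no difference between libraries. It also caught Psmc3ip, a recombination cofactor that is not a proteasome subunit, and Psma8, an alpha subunit of the testis.

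The proteasome is a barrel of stacked alpha and beta rings, the 20S core, in which 3 beta subunits cut proteins (Psmb6, Psmb7 and Psmb5, known as beta1, beta2 and beta5). Interferon-exposed and antigen-presenting cells build immunoproteasomes, in which Psmb9, Psmb10 and Psmb8 take the places of these subunits (beta1i, beta2i and beta5i) and favour peptides that fit MHC class I. The core is opened by caps: the 19S particle, which takes in ubiquitin-tagged proteins, or the PA28 ring of Psme1 and Psme2, which takes in no ubiquitin-tagged protein and is itself interferon-inducible.

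CD11c-positive cells were enriched from Peyer's patches, the lymphoid follicles of the small intestine, of female C57BL/6Rj mice, and live conventional dendritic cells of types 1 and 2 (cDC1, cDC2), lysozyme-making dendritic cells (LysoDC) and macrophages were sorted and measured by 3' single-cell RNA sequencing. Each library pooled 12 mice. Control mice were untreated (88 patches), and no mock-injected group was among the samples. For the CpG library (85 patches) the dose was 125 µg of CpG, which TLR9 senses, and for the R848 library (90 patches) it was 10 µg of R848, which TLR7 senses, both given into the peritoneum 9 hours before. The agonists differ in dose as well as in kind, so their values are set side by side. The ages of the mice are not given in the sources used here. Mice of a group were pooled, there was 1 library per group, and no test between libraries was possible. Both treated libraries were compared with the same Control library. All intervals are 95% intervals that cover counting error only, not the spread between mice.

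The libraries held 43537067 (Control), 43767864 (CpG) and 46556726 (R848) UMIs over 5344, 5049 and 5133 barcodes, and 5079, 4821 and 4898 cells were kept. The 49 genes took 0.758%, 1.24% and 1.07% of the UMIs. Pairs of libraries shared 33 to 42 barcodes. Cells were gated on marker UMIs per 10000 UMIs of the cell, and no marker was a proteasome gene. Cells with under 40 of C1qa, C1qb and C1qc were called mature DC-like (at least 30 of Ccr7, Fscn1, Ccl22, Cacnb3 and Il4i1; 326, 2837 and 2203 cells in Control, CpG and R848), cDC1-like (at least 12 of 7 cDC1 markers; 416, 18 and 5 cells, used in Control only) or resting cDC2-marker cells (at least 1 of 6 cDC2 markers; 1471, 379 and 335 cells). Lysozyme-high cells had at least 100 of Lyz1 and Lyz2 and at least 40 of the C1q genes. They were split into Cd4/Timd4-negative (1409, 822 and 1195 cells) and Cd4/Timd4-positive cells with at least 2 such UMIs (392, 283 and 439 cells). The third gene of that gate, Vsig4, was at 0. The sort and these limits can set the shares of cells: mature DC-like cells made up 6.42%, 58.8% and 45.0% of kept cells. Within 0.5 to 2 times the limit lay 308, 328 and 566 cells for the mature markers and 788, 175 and 211 for lysozyme, and 19.1%, 8.19% and 9.13% of cells met no gate. The resting cDC2-marker gate is named by its rule, because in both treated libraries its 10 leading genes held 0 cDC2 markers and 2 of other types (Epcam and Itgae). The Cd4/Timd4-negative gate, led by Ccr2 and Tnnt1, is likewise not called LysoDC. Mature DC-like cells had 3, 4 and 1 of their own markers among their 10 leading genes and none of another type. Their median C1q sum was 3.49, 1.84 and 2.46 per 10000, against 182 or more in the Cd4/Timd4-negative and Cd4/Timd4-positive gates. The median mature-marker sum of mature DC-like cells was 73.8, 134 and 104 per 10000 in Control, CpG and R848. Control cells of this gate thus lay nearer its limit of 30, and the part of this in the ratios was not tested. These markers and the C1q limit are part of the gate rules, so the values describe the gates and do not test their names.

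The genes of 2 immunoproteasome subunits lie side by side in the MHC class II region. Psmb9 (ENSMUSG00000096727, chr17:34181987-34187764, minus strand, mm10) and Psmb8 (ENSMUSG00000024338, chr17:34197721-34201454, plus strand) flank Tap1, one chain of the peptide transporter, whose annotated start overlaps that of Psmb9 by 212 bases. The counting is not known here to have used strand, but both genes were read at their 3' ends, which do not overlap. Psmb10 is at chr8:105935735-105938444 (minus strand), Psme1 (chr14:55578123-55581529, plus strand) and Psme2 (chr14:55587441-55591113, minus strand) are neighbours, and Psmb5 (chr14:54614119-54618022, minus strand) is on the same chromosome. Psmb6 (chr11:70525367-70527858, plus strand) and Psmb7 (chr2:38588036-38644087, minus strand) lie elsewhere.

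RefSeq promoters (GRCm38.p6, 250 bases before to 50 after each annotated start) were matched for 41 members and searched on both strands for 3 motifs. The core of the interferon-stimulated response element (ISRE), read as GAAA, any 2 bases and GAAA, stood in 3.44% of all 32841 windows and in 5 members (Psme1, Psmg4, Psmb3, Psmd4 and Psmd9). The interferon-gamma activated site (GAS) letters TTCNNNGAA stood in 8.30% of windows and in 3 members (Psmb8, Psmd2 and Psmg1). The antioxidant response element core TGACNNNGC, the site type of Nfe2l1 and Nfe2l2, stood in 12.4% of windows and in 6 members (Psmb5, Psmb6, Psmc6, Psmd12, Psmd9 and Psme4). Each promoter printed below held matches to 1 of the 3 motifs, so none overlapped another. The printed sites are a choice that sets interferon-type letters of Psmb8, Psme1 and Psmg4 beside antioxidant core letters of Psmb5, Psmb6 and Psme4. Psmb9, Psmb10 and Psme2 were searched too and held none of the 3 motifs. Interferon-type letters also stood in Psmb3, Psmd4, Psmd9, Psmd2 and Psmg1, which are not printed. The matches therefore do not separate immunoproteasome genes from other members. Each line holds 30 bases, 5′ to 3′ on the strand of the gene, with the match in capitals. Starts here are those of RefSeq. For Psmb8, Psme1 and Psme4 they lie inside the GENCODE gene, whose outermost bounds are given above for Psmb8 and Psme1, so these sites fall within the annotated gene. The matches begin 97 bases before the start (Psmb8), 9 bases after it (Psme1, whose letters are the reverse strand of the ISRE core), 15 bases after it (Psmg4), 47 and 9 bases before it (Psmb5 and Psmb6) and 7 bases before it (Psme4, reverse strand). A match is a description of letters and not of binding.
Psmb8, GAS, chr17:34198088-34198117, plus strand: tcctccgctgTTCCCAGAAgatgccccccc
Psme1, ISRE core, chr14:55578493-55578522, plus strand: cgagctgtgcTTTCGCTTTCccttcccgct
Psmg4, ISRE core, chr13:34162969-34162998, plus strand: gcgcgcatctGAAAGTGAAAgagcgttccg
Psmb5, antioxidant core, chr14:54618023-54618052, minus strand: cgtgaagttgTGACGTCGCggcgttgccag
Psmb6, antioxidant core, chr11:70525338-70525367, plus strand: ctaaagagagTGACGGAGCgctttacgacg
Psme4, antioxidant core, chr11:30771758-30771787, plus strand: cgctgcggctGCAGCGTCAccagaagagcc

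The first comparison asked how the immunoproteasome set (Psmb8, Psmb9, Psmb10, Psme1 and Psme2) stood against the constitutive catalytic genes (Psmb5, Psmb6 and Psmb7) after each agonist. In mature DC-like cells all 5 genes of the set were at least 1.5-fold higher in both treated libraries, while 1 of the 3 constitutive genes was with CpG and none with R848. Of all genes measured in these cells, 20.3% were at least 1.5-fold higher with CpG and 15.1% with R848. In lysozyme-high cells the ratios of the set (1.26 to 1.99) and of the constitutive genes (1.10 to 1.6) overlapped. Levels are given as CPM, UMIs scaled to 1000000 UMIs summed over the cells of a gate. Capture at the 3' end may differ between genes, so a gene is compared with itself across gates and libraries.

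Psmb8, the beta5i subunit, stood at 829 CPM in Control mature DC-like cells (exact Poisson interval 787 to 872), at 2300.5 CPM with CpG and at 1950.2 CPM with R848. These are ratios to Control of 2.78 (exact conditional binomial interval 2.64 to 2.93) and 2.35 (2.23 to 2.48). Both treated levels lay above every other gate and library shown for this gene, with cDC1-like Control cells at 1114 CPM. Resting cDC2-marker cells held Psmb8 at 680.3 CPM in Control, 1313 CPM with CpG and 1082 CPM with R848 (ratios 1.93 and 1.59). In Cd4/Timd4-negative lysozyme-high cells it stood at 632, 814 and 837 CPM (1.29 and 1.32), and in Cd4/Timd4-positive ones at 609, 833 and 969 CPM (1.37 and 1.59). Psmb8 was thus higher in treated libraries in all 4 gates, with the widest gap in mature DC-like cells.

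Psmb9, the beta1i subunit, stood at 358, 1063 and 938 CPM in mature DC-like cells, ratios of 2.97 (2.74 to 3.22) with CpG and 2.62 (2.42 to 2.84) with R848. Its ratio was the highest in these cells in both treated libraries, members under 20 CPM left aside. Its resting cDC2-marker levels were 337, 639 and 574 CPM (1.90 and 1.70). In lysozyme-high cells it stood at 223, 305 and 301 CPM without and 242, 327 and 337 CPM with Cd4 and Timd4 (ratios 1.35 to 1.39).

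Psmb10, the beta2i subunit, had another pattern across gates. Its treated levels were near each other in dendritic and lysozyme-high gates: 416 and 410.2 CPM with CpG and R848 in mature DC-like cells, 407 and 333 CPM in resting cDC2-marker cells, 422 and 361 CPM in Cd4/Timd4-negative and 419 and 455 CPM in Cd4/Timd4-positive lysozyme-high cells. The Control levels were 189, 188, 252 and 256 CPM in the same order. It was the set member with the highest CpG ratio in both lysozyme-high gates, at 1.67 (1.6 to 1.75) and 1.64 (1.51 to 1.78), and in resting cDC2-marker cells, at 2.17. With R848 it was also the highest of the set in resting cDC2-marker cells, at 1.77.

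The constitutive genes differed less between libraries. Psmb5 stood at 258, 334 and 226 CPM in mature DC-like cells, a ratio of 1.29 (1.18 to 1.43) with CpG and of 0.876 (0.794 to 0.969) with R848. Psmb6 stood there at 320.0, 411 and 332 CPM, with an R848 ratio of 1.04 (0.952 to 1.14) whose interval holds 1. Psmb7 stood at 203, 331 and 259 CPM, and its CpG ratio of 1.63 (1.47 to 1.82) was the 1 constitutive ratio past 1.5 in these cells. In resting cDC2-marker cells the 3 genes had ratios of 1.2, 1.36 and 1.31 with CpG and 1.15, 1.15 and 1.23 with R848 (order Psmb5, Psmb6, Psmb7). In Cd4/Timd4-positive lysozyme-high cells with R848 they were higher by 1.38 (1.26 to 1.5), 1.6 (1.47 to 1.73) and 1.43 (1.28 to 1.61), the range of Psmb8 and Psmb9 there. Of the 50-base stretches in the last 300 bases of Psmb5, 51.0% are also found in other genes, Gm3375 first, so part of its reads may not be unique to it.

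**Figure D1:**
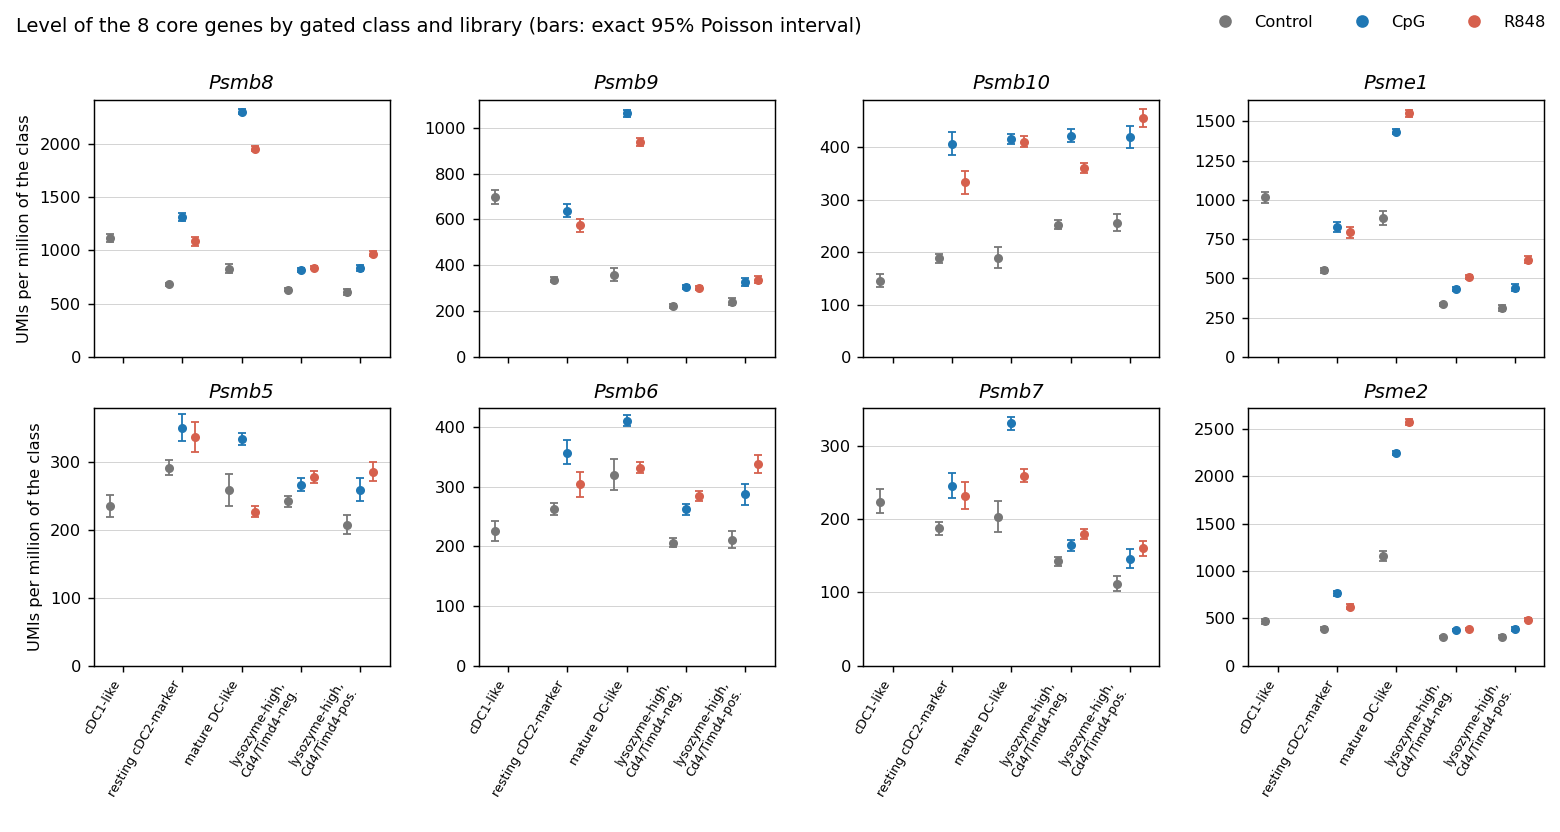
Level of the 8 core genes (y axis, CPM of the gate) in 5 marker gates (x axis) of the Control, CpG and R848 libraries, 1 library each, with exact 95% Poisson intervals. Psmb8 reaches 2300.5 CPM and Psme2 2576 CPM in treated mature DC-like cells, while Psmb10 ends near 333 to 455 CPM in every treated gate.

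Shares within the catalytic genes do not depend on the scaling of a gate. Psmb8, Psmb9 and Psmb10 took 63.8% (exact Clopper-Pearson interval 62.2 to 65.3) of the UMIs of the 6 catalytic genes in Control mature DC-like cells, 77.8% (77.6 to 78.1) with CpG and 80.1% (79.8 to 80.5) with R848. The differences from Control were 14.1 points (12.5 to 15.6) and 16.3 points (14.8 to 17.9). Among resting cDC2-marker cells the share was 61.9%, 71.2% and 69.5%, that is 9.36 points (8.27 to 10.4) and 7.64 points (6.39 to 8.89) above Control. In Cd4/Timd4-negative lysozyme-high cells it was 65.2%, 69.0% and 66.9%, and in Cd4/Timd4-positive ones 67.6%, 69.5% and 69.2%, with differences of 1.63 to 3.75 points. In Control the 4 gates lay within 61.9% and 67.6%, and cDC1-like cells stood above them at 74.1% (73.1 to 75.0).

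The 3 swap pairs differed in pattern. The beta1 pair, Psmb9 of Psmb9 and Psmb6, was 52.8% in Control mature DC-like cells, 72.1% with CpG and 73.8% with R848. In lysozyme-high cells the same pair showed little difference: 52.0%, 53.8% and 51.4% without Cd4 and Timd4, and 53.3%, 53.2% and 49.9% with them, where R848 differed from Control by -3.42 points (-6.24 to -0.59). The beta2 pair, Psmb10 of Psmb10 and Psmb7, was already 63.9% and 69.6% in these 2 gates of Control, above the 48.2% of mature DC-like and 50% of resting cDC2-marker cells. With CpG it stood at 72.0% and 74.2% in the lysozyme-high gates and 55.7% in mature DC-like cells. The beta5 pair, Psmb8 of Psmb8 and Psmb5, reached 87.3% and 89.6% in treated mature DC-like cells from 76.2%, against 75.1% to 77.3% in treated lysozyme-high cells. All 3 pairs were higher in treated than in Control mature DC-like cells, and with R848 the beta2 difference (61.3% against 48.2%, 13.1 points, 9.16 to 17.0) was about that of the beta5 pair (13.4 points, 11.4 to 15.4).

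**Figure D2:**
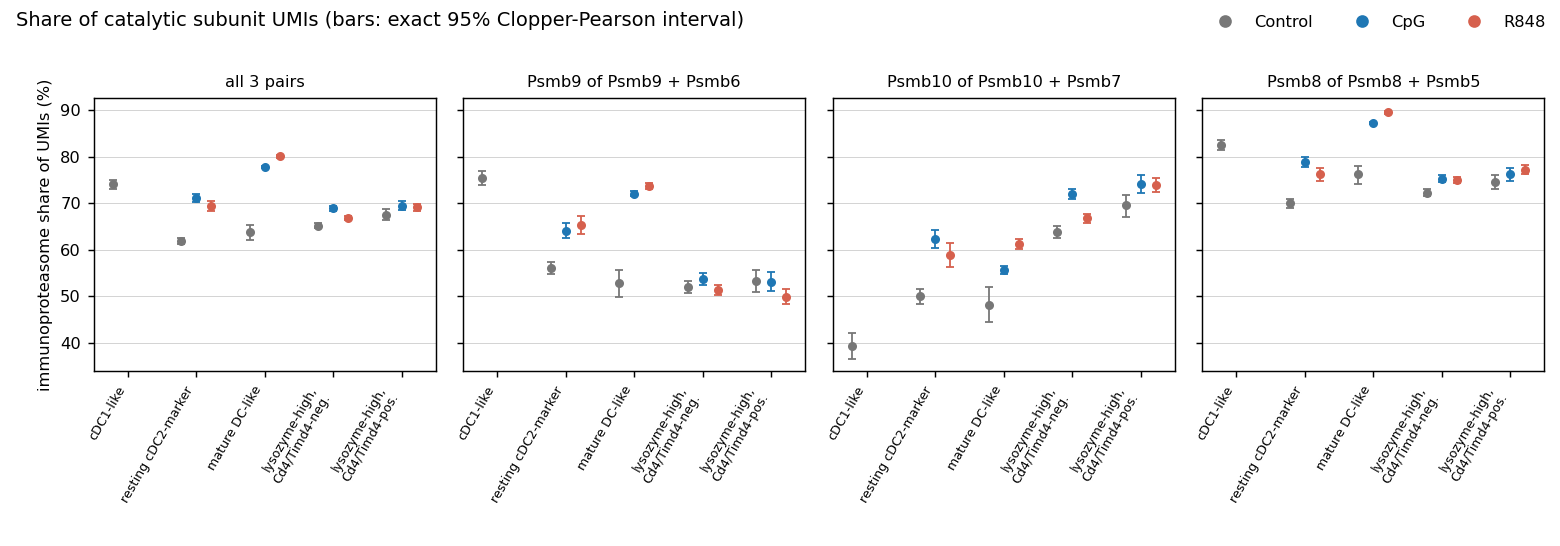
Share of immunoproteasome UMIs (y axis, percent) among all 6 catalytic genes and within each of the 3 swap pairs, by gate (x axis) and library, with exact 95% Clopper-Pearson intervals. In mature DC-like cells treated libraries lie above Control in every panel (63.8% against 77.8% and 80.1% over all pairs), while the beta1 pair of lysozyme-high cells stays between 49.9% and 53.8%.

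The share was also read cell by cell, after each cell was thinned to 10 catalytic UMIs and shallower cells were left out (168 of 326 Control, 178 of 2837 CpG and 238 of 2203 R848 mature DC-like cells). At least 8 of the 10 UMIs were immunoproteasome UMIs in 33.5%, 63.3% and 69.4% of mature DC-like cells in Control, CpG and R848. Without thinning, 21.5%, 49.3% and 58.4% of the same cells had a share of at least 80%. At most 5 of 10 were found in 25.9%, 7.18% and 4.53%. Each library had a single peak, and the median cell held 7 in Control and 8 in both treated libraries. Resting cDC2-marker cells with at least 8 of 10 made up 21.9%, 41.6% and 37.5%, Cd4/Timd4-negative lysozyme-high cells 26.1%, 35.3% and 32.1%, and Cd4/Timd4-positive ones 36.8%, 41.9% and 41.8%. Depth differed between the libraries: the median mature DC-like cell held 9, 26 and 20 catalytic UMIs, and the Control cells kept were the deeper ones.

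**Figure D3:**
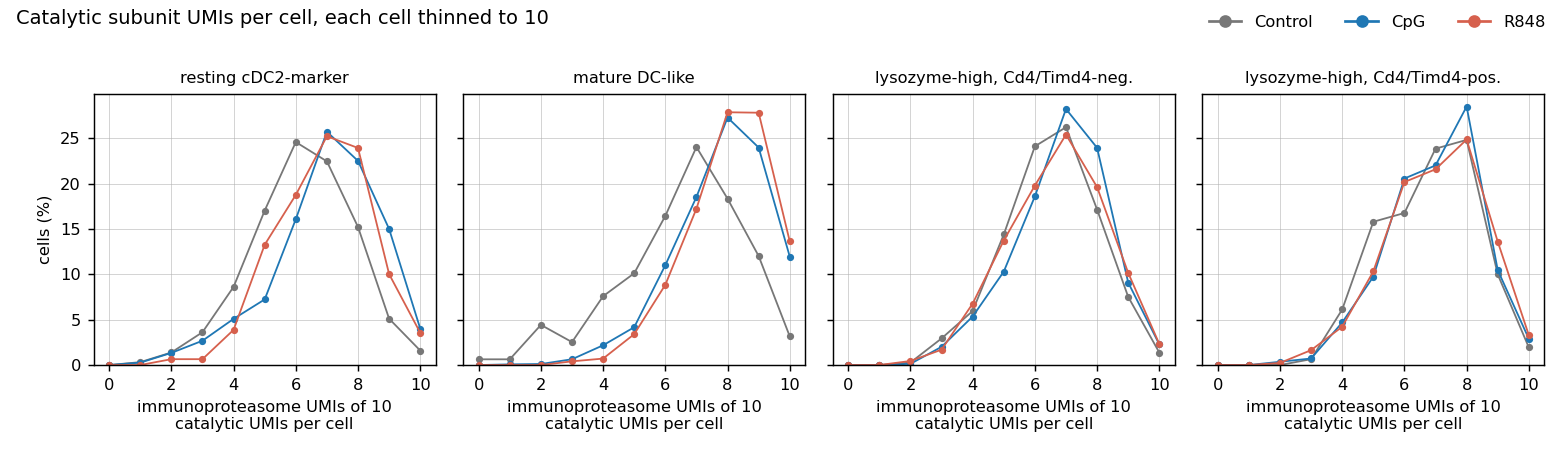
Percent of cells (y axis) by the number of immunoproteasome UMIs among 10 catalytic UMIs per cell (x axis), for 4 gates, after thinning every cell to 10. The mature DC-like curves of CpG and R848 sit to the right of Control, with 63.3% and 69.4% of cells at 8 or more against 33.5%.

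The PA28 cap was compared next. Psme2, its beta chain, stood at 1158 CPM (1109 to 1209) in Control mature DC-like cells, 2246 CPM with CpG and 2576 CPM with R848, ratios of 1.94 (1.86 to 2.03) and 2.22 (2.13 to 2.33). Psme1, its alpha chain, stood there at 886, 1433 and 1551 CPM, ratios of 1.62 (1.54 to 1.70) and 1.75 (1.66 to 1.84). Both genes were highest with R848 in mature DC-like cells, where Psmb8 and Psmb9 were highest with CpG. Among resting cDC2-marker cells Psme2 stood at 392, 762 and 624 CPM and Psme1 at 551, 828 and 793 CPM. In Cd4/Timd4-negative lysozyme-high cells Psme2 stood at 301, 378 and 388 CPM and Psme1 at 335, 433 and 509 CPM. In Cd4/Timd4-positive ones Psme2 stood at 304, 389 and 485 CPM and Psme1 at 312, 441 and 619.9 CPM, where the R848 ratio of Psme1, 1.99 (1.86 to 2.12), was the highest among members with at least 20 CPM.

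Set against the summed UMIs of the 19S subunits, Psme1 and Psme2 together had a ratio of 1.04 (0.991 to 1.09), 1.36 (1.35 to 1.38) and 1.93 (1.90 to 1.96) in mature DC-like cells of Control, CpG and R848. The same ratio was 0.541, 0.682 and 0.671 in resting cDC2-marker cells, 0.441, 0.526 and 0.517 in Cd4/Timd4-negative and 0.472, 0.533 and 0.653 in Cd4/Timd4-positive lysozyme-high cells. It was higher in treated libraries in all 4 gates. Between CpG and R848 the mature ratio differed on both sides: the PA28 sum was 3679 and 4127 CPM and the 19S sum 2698 and 2140.3 CPM, against 2044 and 1969 CPM in Control. The 2 chains did not keep 1 proportion. Psme2 made up 56.7% of their UMIs in Control mature DC-like cells and 61.0% and 62.4% in treated ones, but 47.3%, 46.6% and 43.3% in Cd4/Timd4-negative and 49.4%, 46.9% and 43.9% in Cd4/Timd4-positive lysozyme-high cells, and 31.5% in cDC1-like Control cells.

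**Figure D4:**
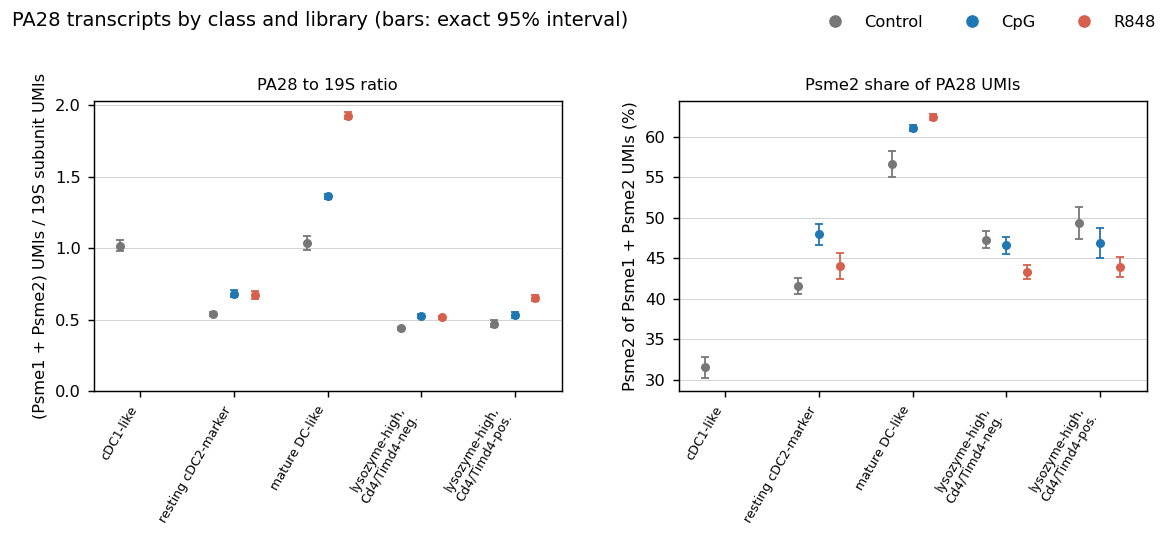
Left, ratio of Psme1 plus Psme2 UMIs to the UMIs of all measured 19S subunits. Right, Psme2 as a percent of Psme1 plus Psme2 UMIs. Both are by gate (x axis) and library with exact 95% intervals. The ratio reaches 1.93 in R848 mature DC-like cells, and the Psme2 share with R848 is above Control in mature DC-like cells (62.4% against 56.7%) and below it in both lysozyme-high gates.

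Psme2b, on chromosome 11 (chr11:48945354-48946190), shares 68.5% of the 50-base stretches of its last 300 bases with Psme2, so their reads can be split between them. It followed Psme2, at 183, 350 and 395 CPM in mature DC-like cells. With both summed, the ratios to Control were 1.94 and 2.21 in mature DC-like, 1.97 and 1.61 in resting cDC2-marker, 1.32 and 1.35 in Cd4/Timd4-negative and 1.29 and 1.63 in Cd4/Timd4-positive cells. Near copies of the 3' end exist for other members too: 72.5% of the stretches of Psmd1, 57.8% of Psma5, 51.4% of Psmb3, 34.3% of Psmd2, 24.3% of Psme1, 9.96% of Psmb1 and 3.19% of Psmd9 were found in another gene.

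The other caps were low. Psme3, which forms the nuclear PA28 gamma ring, stood between 25.3 and 56.2 CPM in these gates. Psme4, the PA200 cap, was in lysozyme-high cells among the members with the highest ratios: 17.2, 31.2 and 29.5 CPM without Cd4 and Timd4 (ratios 1.82, 1.54 to 2.15, and 1.71, 1.46 to 2.01) and 21.4, 34.2 and 40.5 CPM with them (1.6 and 1.89). In mature DC-like cells Psme4 stood at 10.1, 14.7 and 17.1 CPM, under the minimum of 20 CPM for a comparison. Psmf1, the inhibitor PI31, stood between 14.6 and 27.3 CPM.

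Across all 49 genes, members with at least 20 CPM and 20 UMIs in the higher library were counted as measured, and a ratio was called at 1.5-fold on log2(CPM + 5). Called higher with CpG were 12 of 46 measured members in resting cDC2-marker cells (9.17% of all 4992 genes measured there), 19 of 43 in mature DC-like cells (20.3% of all), 3 of 44 in Cd4/Timd4-negative (6.56%) and 1 of 46 in Cd4/Timd4-positive lysozyme-high cells (9.42%). With R848 they were 5 of 46 (6.61%), 8 of 43 (15.1%), 4 of 45 (10.1%) and 8 of 46 (14%) in the same order. In lysozyme-high cells these counts were near or below the share of all genes. No member was called lower, where 3.37%, 11.6%, 3.16% and 4.31% of all genes were with CpG and 2.81%, 14.6%, 5.1% and 6.77% with R848. At 2-fold, 2 and 0 members were higher in resting cDC2-marker cells (3.35% and 1.75% of all genes with CpG and R848), 3 and 5 in mature DC-like cells (8.71% and 5.75%), and none in lysozyme-high cells (2.93% and 4% without, 3.84% and 5.26% with Cd4 and Timd4).

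The median log2 ratio of the measured members was 0.43 and 0.31 in resting cDC2-marker cells (CpG and R848), 0.53 and 0.16 in mature DC-like cells, 0.16 and 0.28 in Cd4/Timd4-negative and 0.31 and 0.42 in Cd4/Timd4-positive cells. The median of all genes measured was itself off 0, at 0.18 and 0.16, 0.14 and 0.01, 0.03 and 0.10, and 0.08 and 0.13. With libraries scaled by median ratios, which removes most of this shift, the counts were 5 and 3 in resting cDC2-marker cells, 10 in mature DC-like cells with CpG, 1 in Cd4/Timd4-negative cells with R848 and 4 in Cd4/Timd4-positive cells with R848. The share of all genes called under that scaling is not given here, so these counts are not set against a background. The direction of the 8 core genes was the same under that scaling. The members that passed a minimum through the library where they are high are part of these counts, so they describe the family and do not set it apart.

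**Figure D5:**
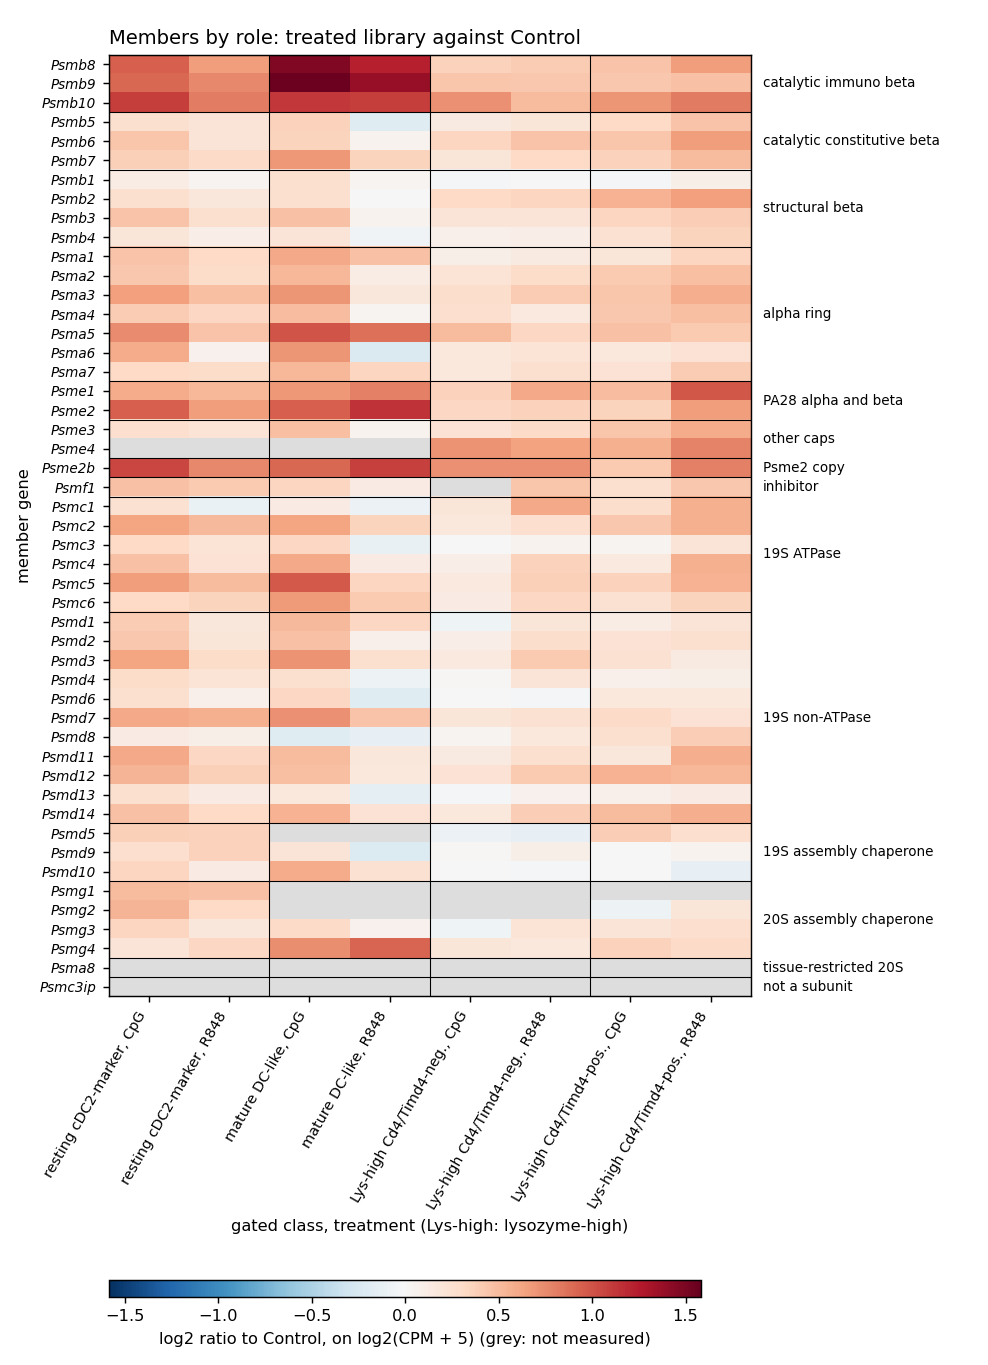
Log2 ratio of each treated library to Control (colour, on log2(CPM + 5)) for the 49 members (rows, by role) in 4 gates (columns, CpG and R848 each). Grey marks a member under 20 CPM or 20 UMIs. The darkest cells are Psmb8 and Psmb9 in mature DC-like cells (log2 ratios 1.47 and 1.56 with CpG). The median of the measured members there is 0.53 with CpG and 0.16 with R848. The median of all genes measured in these cells was itself 0.14 with CpG and 0.01 with R848.

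The alpha ring, which gates the barrel, was called higher in 4 of 7 members in mature DC-like cells with CpG (Psma1, Psma3, Psma5 and Psma6; 20.3% of all genes), in 1 of 7 with R848 (15.1% of all, so no more than the background) and in 2 of 7 in resting cDC2-marker cells with CpG (Psma3 and Psma5; 9.17% of all). No alpha gene was called in lysozyme-high cells. Over the 7 genes (Psma2, Psma4 and Psma7 are the others) the log2 ratios ran from 0.49 to 1.0 in mature DC-like cells with CpG and from -0.22 to 0.87 with R848, and from 0.10 to 0.58 in the lysozyme-high gates. Psma5 stood out by size: 181, 367 and 335 CPM in mature DC-like cells (ratios 2.02, 1.81 to 2.27, and 1.85, 1.65 to 2.07) and 188, 320.1 and 258 CPM in resting cDC2-marker cells. Psma6 differed between the agonists. It stood at 222, 365 and 189.7 CPM in mature DC-like cells, and its level with R848 was 0.520 (0.496 to 0.545) times that with CpG. The 4 structural beta subunits, which cut nothing, had median log2 ratios of 0.22 and 0.14 in resting cDC2-marker and 0.25 and 0.02 in mature DC-like cells (CpG and R848), below those of the alpha ring (0.45, 0.32, 0.61 and 0.18). Psmb1 had CpG and R848 ratios of 1.08 and 1.03 in resting cDC2-marker cells and 0.985 and 1.07 in Cd4/Timd4-positive cells. Psmb4 stood at 201, 230.5 and 216 CPM in resting cDC2-marker cells (CpG ratio 1.15, 1.06 to 1.25). The only structural call was Psmb2 in Cd4/Timd4-positive cells with R848, at 327 against 207 CPM (1.58, 1.45 to 1.71), with Psmb2 also at 305 CPM with CpG (1.47).

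Of the 19S ATPases, the ring that unfolds proteins and threads them into the core, 4 of 6 were called in mature DC-like cells with CpG (Psmc2, Psmc4, Psmc5 and Psmc6, leaving Psmc1 and Psmc3) and none with R848, where 20.3% and 15.1% of all genes were. The median log2 ratio of the 6 was 0.61 with CpG and 0.24 with R848 there, and 0.27 and 0.55 in Cd4/Timd4-positive lysozyme-high cells. Psmc5 stood at 113, 227 and 145 CPM in mature DC-like cells, a CpG ratio of 2.0 (1.74 to 2.32), and its R848 level was 0.640 (0.606 to 0.676) times the CpG level. Psma6 and Psmc5 were the 2 members called lower with R848 than with CpG in mature DC-like cells, where 12% of all genes were lower, and none was higher (5.52% of all). In resting cDC2-marker cells Psmc2 stood at 99.2, 155 and 144 CPM (1.56 and 1.45) and Psmc5 at 99.6, 161 and 143 CPM. Psmc1 had the lowest R848 ratio of the measured members in those cells, 0.926 (0.767 to 1.11), and a CpG ratio of 1.10 (0.925 to 1.33) in mature DC-like cells. It was called higher in Cd4/Timd4-negative cells with R848, at 92.2 against 59.2 CPM (1.56, 1.43 to 1.70).

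The 11 non-ATPase 19S genes were called in 3 members in resting cDC2-marker cells with CpG (Psmd3, Psmd7 and Psmd11; 9.17% of all genes), in 2 in mature DC-like cells with CpG (Psmd3 and Psmd7; 20.3% of all, so no more than the background) and in none elsewhere. Their median log2 ratio was 0.42 and 0.22 in resting cDC2-marker cells, 0.48 and 0.16 in mature DC-like cells and 0.11 to 0.24 in lysozyme-high cells. Psmd7, a partner of the deubiquitinase Psmd14, stood at 134, 224 and 185 CPM in mature DC-like cells and at 95.4, 147 and 143 CPM in resting cDC2-marker cells, where its R848 ratio was 1.5 (1.33 to 1.69) and under the call once 5 CPM were added. Psmd8 had the lowest CpG ratio of the measured members in mature DC-like cells, at 215 against 247 CPM (0.872, 0.790 to 0.964), and 1.09 in resting cDC2-marker cells. Psmd13 stood at 94.9 and 107 CPM in Control and CpG mature DC-like cells (1.13, 0.961 to 1.33). Psmd6 stood at 67.9 CPM in Control and 59.0 CPM in R848 mature DC-like cells (0.869, 0.717 to 1.06). In Cd4/Timd4-negative cells Psmd6 had an R848 ratio of 0.974 and Psmd1 a CpG ratio of 0.946, and both intervals held 1. Psmd12 in Cd4/Timd4-positive cells stood at 59.2 and 89.2 CPM in Control and CpG (1.51, 1.27 to 1.79), also under the call with 5 CPM added.

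The assembly chaperones, which are not part of the finished particle, differed among themselves. Psmg4 stood at 99.9, 169.7 and 195 CPM in mature DC-like cells, ratios of 1.70 (1.46 to 1.99) and 1.95 (1.67 to 2.28), and was called in no other gate. Psmg1 and Psmg2, which pair to start the alpha ring, were under the minimum for a comparison in the same cells, at 7.86, 6.89 and 3.73 CPM for Psmg1 (14, 122 and 49 UMIs) and 11.2, 11.1 and 4.03 CPM for Psmg2 (20, 197 and 53 UMIs). Their resting cDC2-marker levels were 23.0, 34.8 and 33.7 CPM for Psmg1 and 21.2, 33.1 and 27.7 CPM for Psmg2. Psmg2 in Cd4/Timd4-positive cells stood at 20.6 and 19.2 CPM in Control and CpG (0.928, 0.665 to 1.29). Psmg3 stood between 25.3 and 51.9 CPM in all 4 gates. Of the 19S chaperones Psmd5, Psmd9 and Psmd10, only Psmd10 in mature DC-like cells with CpG was called, at 115 against 75.2 CPM (1.53, 1.29 to 1.84). In Cd4/Timd4-positive cells Psmd10 had an R848 ratio of 0.910 (0.792 to 1.05) and Psmd9 of 1.05, and in Cd4/Timd4-negative cells Psmd5 had ratios of 0.925 and 0.891 with intervals that held 1. Psma8 stood between 0.0761 and 3.74 CPM and Psmc3ip between 1.12 and 12.5 CPM, and neither was measured in any comparison.

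Within a library, mature DC-like cells were set against resting cDC2-marker cells, so that both came from the same preparation. Called higher in mature cells were 4, 8 and 6 of 46 members in Control, CpG and R848 (16%, 17.5% and 18.5% of all genes), and called lower were 4, 4 and 7 (30.7%, 35.4% and 42% of all). These counts were no more than the background in either direction. Psme2 led the subunits each time, with ratios of 2.95 (2.80 to 3.12), 2.95 (2.83 to 3.07) and 4.13 (3.93 to 4.34), and Psme1 was 1.61, 1.73 and 1.95. Psmb8 was 1.22 times the resting level in Control and 1.75 and 1.80 times in CpG and R848, and Psmb9 1.06, 1.66 and 1.63 times. Psmb10 had ratios of 1.0, 1.02 and 1.23, and in Control and CpG its direction turned under other gate settings. Among the lower members were Psmg1 (0.341, 0.198 and 0.111) and Psmd5 (0.440, 0.544 and 0.370) in each library, Psmg2 likewise (0.530, 0.336 and 0.145) and Psme3 in Control and R848 (0.551 and 0.487). In Control, mature cells thus had more Psme1 and Psme2 transcript than resting cDC2-marker cells at catalytic immunoproteasome shares of 63.8% and 61.9%.

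Resting cDC1-like cells could be read in Control only. Against resting cDC2-marker cells, 3 of 45 members were called higher (7.53% of all genes, so no more than the background). They were Psmb9 at 697 against 337 CPM (2.07, 1.96 to 2.18), Psme1 at 1015 against 551 CPM (1.84, 1.76 to 1.92) and Psmb8 at 1114 against 680.3 CPM (1.64, 1.57 to 1.71). None was called lower (21.1% of all), and Psmb10 had a ratio of 0.773 (0.698 to 0.856), so that the beta2 pair was 39.4% beta2i in cDC1-like cells against 75.5% for beta1i and 82.6% for beta5i. Against cDC1-like cells, Control mature DC-like cells had 5 of 43 members higher (24.9% of all) and 2 lower (22.1%), with Psme2 at a ratio of 2.48 (2.32 to 2.65) and Psmb9 at 0.514 (0.470 to 0.561). Mature cells with Xcr1 UMIs and no Sirpa UMI were set against those with Sirpa and no Xcr1 UMI (54 against 364 cells with CpG and 173 against 245 with R848). One of 43 members was called higher with CpG (Psmb10, 1.57; 9.48% of all genes higher and 21.4% lower) and none of 44 with R848, where Psme4 and Psmd9 were lower (8.81% higher and 16% lower). All 5 set genes had ratios above 1 in the Xcr1 cells of both libraries, with an interval that held 1 for Psmb10 with R848 alone (1.11, 0.986 to 1.24). Among them Psmb9 stood at 1392 against 966 CPM (1.44, 1.32 to 1.57) with CpG and 1174 against 827 CPM (1.42, 1.32 to 1.53) with R848. Higher sums in Xcr1 cells were not particular to the set. The constitutive catalytic sum was 1211 against 1127 CPM with CpG and 968 against 791 CPM with R848. The 19S sum was 3174 against 2834 CPM with CpG and 2400 against 2058 CPM with R848.

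The lysozyme-high gates differed in these genes by less than the limit for a call. With R848 the PA28 to 19S ratio was 0.653 (0.632 to 0.675) in Cd4/Timd4-positive and 0.517 (0.507 to 0.528) in Cd4/Timd4-negative cells. With CpG the intervals of that ratio overlapped (0.533, 0.510 to 0.558, and 0.526, 0.512 to 0.539). Between Cd4/Timd4-positive and Cd4/Timd4-negative cells no member was called in any library, of 45, 45 and 46 measured (6.91%, 6.5% and 5.76% of all genes higher and 4.95%, 4.56% and 3.43% lower in Control, CpG and R848). Against resting cDC2-marker cells, Cd4/Timd4-negative cells had 0, 1 and 2 members called higher (16.7%, 16.6% and 18.3% of all) and 4, 22 and 9 lower (21.3%, 33.3% and 27.1%). The 22 of 47 with CpG included Psmb9 at 305 against 639 CPM (0.477, 0.452 to 0.504) and Psme2 at 378 against 762 CPM (0.496, 0.472 to 0.521), while Psmb10 stood at 422 and 407 CPM.

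A gate of 169 R848 cells carried both the lysozyme and C1q level of lysozyme-high cells and the mature markers (7 and 16 cells in Control and CpG). Against mature DC-like cells of the same library, 8 of 44 members were called lower (21.6% of all genes) and 1 higher (Psme4, 32.5% of all). Psme2 stood at 661 against 2576 CPM (0.257, 0.242 to 0.272), Psme1 at 638 against 1551 CPM (0.411), Psmb9 at 414 against 938 CPM (0.442) and Psmb8 at 895 against 1950.2 CPM (0.459). Psmb10 stood at 407 against 410.2 CPM (0.993, 0.918 to 1.07). The catalytic immunoproteasome share was 68.3%, against 80.1% in mature DC-like and 66.9% in Cd4/Timd4-negative lysozyme-high cells of that library. Doublets that the caller missed would also carry both marker sets, and their part was not tested.

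Summed over a whole library, the same genes gave other ratios than within gates. The share of mature DC-like cells differed at the same time, as given above, and its part in the whole-library ratios was not tested. Psme2 stood at 387 CPM in the whole Control library, 1260.0 CPM with CpG and 1111 CPM with R848, ratios of 3.26 and 2.87, which lie above the ratio of every one of the 4 gates (at most 1.94 and 2.22). Psme1 with CpG did the same, at 1.91 against at most 1.62, and so did Psmb6, at 1.47 against at most 1.36. Psmb8 had whole-library ratios of 2.24 and 1.79, within the range of the gates.

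The other genes of the pathway were read from a list of 48, of which 45 were in the matrices. Called higher with CpG and R848 were 11 of 41 and 9 of 40 measured genes in resting cDC2-marker cells (9.17% and 6.61% of all genes), 18 of 40 and 16 of 40 in mature DC-like cells (20.3% and 15.1%), 8 of 40 and 6 of 40 in Cd4/Timd4-negative cells (6.56% and 10.1%) and 8 of 41 and 8 of 41 in Cd4/Timd4-positive cells (9.42% and 14%). Called lower were 2 in mature DC-like cells each time (11.6% and 14.6% of all) and 1 in each lysozyme-high gate with R848 (5.1% and 6.77%). Of peptide supply and class I loading, 8 of 12 and 7 of 12 were higher in mature DC-like cells, beside the same 20.3% and 15.1% of all genes. Tap1, the neighbour of Psmb8 and Psmb9, stood there at 216, 469.5 and 445 CPM (ratios 2.18, 1.97 to 2.42, and 2.07, 1.86 to 2.30) and Tap2 at 138, 397 and 374 CPM (2.88 and 2.72). In Cd4/Timd4-negative cells with R848 Tap2 had a ratio of 0.958 (0.886 to 1.04) beside 1.44 for Tap1. Of regulators, Irf1, which binds the ISRE, stood at 225, 374 and 399 CPM in mature DC-like cells (1.67 and 1.78) and at 39.5, 50.3 and 38.6 CPM in Cd4/Timd4-negative cells, with an R848 ratio of 0.977 (0.870 to 1.10). Nlrc5, the transactivator of MHC class I genes, stood at 21.3, 34.8 and 41.8 CPM in mature DC-like cells. Nfe2l1, the factor that drives proteasome genes when proteasomes are blocked, stood there at 56.1, 91.4 and 101 CPM (1.63 and 1.81). Nfe2l2, which binds the same element, is named here after its values were seen. In mature DC-like cells it was lower in both treated libraries, at 129, 29.7 and 38.9 CPM (0.231, 0.198 to 0.271, and 0.303, 0.259 to 0.356). Its ratios in resting cDC2-marker cells were 0.745 (0.637 to 0.869) and 0.857 (0.727 to 1.01). In Cd4/Timd4-negative cells Nfe2l2 was instead higher in both treated libraries, at 138, 191 and 183 CPM (CpG ratio 1.38, 1.30 to 1.47). Pomp, the chaperone that completes the core and is needed for immunoproteasome assembly, had ratios near 1: 569, 549 and 628 CPM in mature DC-like cells (0.965, 0.904 to 1.03, and 1.10, 1.03 to 1.18) and 729, 791 and 770.5 CPM in resting cDC2-marker cells. Ubb, a polyubiquitin gene, stood at 2169, 3094 and 3180.2 CPM in mature DC-like cells (1.43 and 1.47).

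The 5 genes whose levels were most like the mean of the immunoproteasome set were Ssu72 (Pearson r 0.95), Arhgap30 (0.94), Sp140 (0.94), Zc3h7a (0.94) and Fam96b (0.93), among 2396 genes with a mean of at least 50 CPM. The set itself did not follow 1 pattern: r was 0.98 for Psmb8, 0.94 for Psme2, 0.93 for Psmb9 and Psme1, but 0.38 for Psmb10. For the constitutive Psmb7, Psmb6 and Psmb5 it was 0.89, 0.80 and 0.37. The measure was taken over 14 combinations of gate and library, which share libraries and depth, and is a description.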

How the data were processed

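Single-cell 3' libraries of Control, CpG and R848 phagocytes were aligned to mm10 and UMIs counted per cell barcode and gene by the authors with Cell Ranger 2.0.0, per the submitters' processing notes, and the deposited values are raw UMI counts. The sources used here do not name the annotation release. Cells with at least 500 genes and at most 10% mitochondrial UMIs were kept. Doublets were scored against simulated ones (2 per cell, 50 neighbours, an expected rate that grew with the number of cells), which removed 225, 202 and 209 cells.

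Cells were gated on marker sums, and UMIs were summed per gate and library. All gates left out cells with B, plasma, T/NK, plasmacytoid, neutrophil or stromal markers (86, 71 and 105 cells). Cells with 1 UMI of Cd4, Timd4 and Vsig4 were in neither lysozyme-high gate (209, 130 and 193 cells). Gate limits were set on the markers' distributions. The contrasts of lysozyme-high with resting cDC2-marker cells, of Xcr1 with Sirpa cells and of lysozyme-high mature cells were added after values were seen. The members and lists were chosen with earlier results of these data known.

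With 1 library per group no test was made. Levels carry exact Poisson, ratios exact conditional binomial and shares Clopper-Pearson 95% intervals. Ratios were called at 1.5-fold on log2(CPM + 5) for genes with at least 20 CPM and 20 UMIs in the higher library. Named by rule were the 8 core genes, the caps, inhibitor, 20S chaperones and non-subunits, and of the other members the 3 highest and 3 lowest ratios to Control in each gate, with genes fixed from the related list, of which 1 is not reported here. Other called members were named after their values were seen. On simulated counts, 99.5% to 100% of genes changed 2-fold were recovered, and 0% to 0.181% of unchanged genes were called. These counts were drawn from Control profiles with counting error only, without spread between mice or libraries. The rates therefore do not give the false calls between the real libraries. Alternatives covered added CPM, minimum, scaling, fold, gate limits, clusters, cell weighting, mitochondrial limit, doublets, free RNA and proliferating cells. Coordinates came from GENCODE (mm10) by Ensembl ID for 50 of 50 symbols and promoters from RefSeq, for 41 members (unmatched: Psmb7, Psmb1, Psmb2, Psmc3, Psmd3, Psmd7, Psmg2, Psma8). Tools were Python 3.11.15, numpy 2.4.6, scipy 1.17.1, pandas 2.3.3, scikit-learn 1.9.0, leidenalg 0.10.2 and matplotlib 3.10.9.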

Additional observations from a re-analysis of the deposited data

Results flagged for a closer look

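For 3 members the ratio to Control lay below 1 in mature DC-like cells and above 1 in Cd4/Timd4-positive lysozyme-high cells, each with an interval that left out 1. The difference between the gates was not tested. Psma6 with R848 had a ratio of 0.853 in mature DC-like cells (189.7 against 222 CPM) and 1.18 in Cd4/Timd4-positive cells (227 against 192 CPM). Psmb5 with R848 had a ratio of 0.876 (226 against 258 CPM) and 1.38 (285 against 207 CPM). Psmd8 with CpG had a ratio of 0.872 (215 against 247 CPM) and 1.2 (149 against 123 CPM). The mature Control sum is the shallowest of these, at 1781370 UMIs.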

How the results depend on the processing

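The 5 set genes kept ratios above 1 under the reported setting and each of 11 alternatives in all 4 gates. The sizes of these ratios depended on the setting. Under median-ratio scaling, 5 ratios each of Psmb8, Psmb9, Psme1 and Psme2 left their reported intervals and 3 did not. For Psmb10, 4 did and 4 did not. With doubled limits, 2 ratios each of Psmb8, Psmb9 and Psme1 and 3 of Psme2 did, and none of Psmb10. With clusters, 2 of Psmb8, 3 of Psmb9, 1 of Psmb10 and 2 of Psme2 did, and none of Psme1. Members at least 1.5-fold higher than Control (12 and 5 in resting cDC2-marker, 19 and 8 in mature DC-like, 3 and 4 in Cd4/Timd4-negative, 1 and 8 in Cd4/Timd4-positive cells, with CpG and R848) also depended on the setting. With 1 CPM added instead of 5, the Cd4/Timd4-positive counts were 2 and 15, and with 20 CPM added the Cd4/Timd4-negative R848 count was 1. With no minimum, 1 member was lower in mature DC-like cells with R848. With a 100 CPM minimum the Cd4/Timd4-negative counts were 1 and 1. Median-ratio scaling gave 5 and 3 in resting cDC2-marker, 10 in mature DC-like (CpG), 1 in Cd4/Timd4-negative (R848) and 4 in Cd4/Timd4-positive cells (R848). At 2-fold the counts were 2 and 0, 3 and 5, 0 and 0, and 0 and 0. Cd4/Timd4-positive counts were 2 and 13 with cells weighted equally, 2 (CpG) with gate limits halved, 5 and 13 with them doubled, 3 and 13 with gates named by clusters and 2 and 14 without proliferating cells. Clusters gave 1 for Cd4/Timd4-negative cells with R848. Apart from the 2-fold counts, the share of all genes at these alternative settings is not given here. The counts therefore show how far the calls moved, and not whether members exceeded all genes. The catalytic share of mature DC-like cells differed from Control by 11.5 and 13.6 points with doubled limits, and that of resting cDC2-marker cells by 11.3 points with clusters (CpG). The log2 change of the PA28 to 19S ratio in mature DC-like cells, 0.39 and 0.89, was 0.52 and 1.01 with halved limits, 0.21 and 0.68 with doubled limits, and 0.52 and 1.05 with clusters. The causes of these shifts were not tested. Psmb10 between mature DC-like and resting cDC2-marker cells ranged from -0.11 to 0.15 (log2) in Control and -0.10 to 0.13 in CpG. No paired analysis was possible because each group is 1 library. With 1 library per group the spread between mice was not measured. Free RNA, estimated from C1q UMIs in mature DC-like cells, came to 4.37%, 2.46% and 2.78% of UMIs in Control, CpG and R848. With it taken away, the log2 ratios of Psme2 in Cd4/Timd4-negative cells were 0.26 and 0.30, against 0.33 and 0.36, and the other ratios of the 8 core genes to Control stayed within their intervals.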
